A study of Homo sapiens with 8 samples.

Results

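The genes described here are 39 genes of the lysosome: 2 transcription factors of lysosomal genes and 1 lysosomal ion channel, 3 membrane glycoproteins, 9 proteases, 7 glycosidases, 6 proteins that break down or export lipids, and 11 subunits of the proton pump (5 of its V0 and 6 of its V1 sector). They were taken by gene symbol from a list of known lysosomal genes, with no threshold on measured values, although earlier results of these data were known when the list was made, and all 39 were listed in both deposited tables, which hold 34164 genes between them. RNA was sequenced from Kyse510, an established human cell line of esophageal squamous cell carcinoma (ESCC), in 8 libraries, 1 for each condition. In the inhibitor arm, cells received vehicle (labelled DMSO), 7 µM SP2509 (an inhibitor of the histone demethylase LSD1), 7 µM UNC0642 (an inhibitor of the histone methyltransferase G9a) or both inhibitors, each for 2 days, and no separate dose is given for the combination. In the knockdown arm, cells carried a lentiviral Tet-pLKO construct with a doxycycline- (Dox-) inducible hairpin against LSD1 (shLSD1) or G9a (shG9a), were kept in puromycin for 14 days to select stable cells, and then went without Dox or with Dox for 2 days. The sources do not say how many clones make up each line, and no line with a nonsilencing hairpin was analysed here, so an effect of Dox itself and an effect of the knockdown cannot be told apart.

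The lysosome is the acidic compartment in which cells digest proteins, glycans, lipids and worn-out organelles. Its acid pH is made by the V-type ATPase, whose cytosolic V1 sector splits ATP and whose membrane-bound V0 sector carries protons across the membrane. Its hydrolases are made in the endoplasmic reticulum, are tagged in the Golgi with mannose 6-phosphate, and work best at acid pH, while heavily glycosylated membrane proteins line the inner face of the organelle. TFEB and TFE3 are related transcription factors that move into the nucleus when nutrients are short and switch on many of these genes together through the CLEAR element, a DNA motif built around the letters CACGTG. Cancer cells often rely on lysosomes for nutrients, and several cathepsins can be secreted and cut extracellular matrix.

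The CACGTG core was searched for from 250 bases before to 50 bases after the RefSeq gene starts (GRCh38.p14). It reads the same on both strands. Of 27305 promoters, 7.43% held it, and of the 28 members with a promoter in that set 9 did (MCOLN1, LAMP1, CD63, CTSA, CTSD, GAA, NEU1, ATP6V0B and ATP6V0D1). The longer form TCACGTGA, which contains the core, was in 1.04% of all promoters and in 5 of the 28 members (MCOLN1, LAMP1, CTSA, GAA and ATP6V0D1). The windows below show CLEAR-like letters of some of these members, with the motif in capitals and each sequence read 5′ to 3′ on the strand of its gene. Not shown are the windows of CD63 and CTSD, another of LAMP1 with 4 copies of CACGTG, and another of GAA with 1 copy of TCACGTGA. Of the windows shown, those of MCOLN1, LAMP1, NEU1 and GAA lie just before the gene as the deposited tables bound it, and those of CTSA, ATP6V0B and ATP6V0D1 lie within those bounds.
MCOLN1 (chr19:7522567-7522623, plus strand): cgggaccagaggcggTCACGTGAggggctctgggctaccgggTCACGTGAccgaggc
LAMP1 (chr13:113297195-113297232, plus strand): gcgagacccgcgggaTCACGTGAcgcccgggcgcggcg
CTSA (chr20:45891278-45891331, plus strand): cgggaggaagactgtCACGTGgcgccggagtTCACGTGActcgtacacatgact
GAA (chr17:80101489-80101526, plus strand): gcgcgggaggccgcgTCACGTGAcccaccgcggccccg
NEU1 (chr6:31862927-31862962, minus strand): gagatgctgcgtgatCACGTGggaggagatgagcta
ATP6V0B (chr1:43974888-43974941, plus strand): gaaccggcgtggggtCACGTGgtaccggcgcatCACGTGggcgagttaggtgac
ATP6V0D1 (chr16:67481195-67481232, minus strand): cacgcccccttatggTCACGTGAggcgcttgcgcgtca

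Values are FPKM, that is, fragments counted on a gene, scaled by gene length and by the library total. The steps between low FPKM values gave library totals of 15662035 to 17889466 reads and a whole number of reads for nearly every gene, so that counting error could be computed. A log2 fold change is log2 of (FPKM + 1) in the treated library over (FPKM + 1) in its own control, which makes the changes of low genes look smaller than they are. A gene was called higher or lower when this ratio reached 1.3 in that direction and 1 or both libraries had 1 FPKM or more. Ratios given as fold are ratios of reads per library total with their 95% exact conditional binomial interval, which covers counting error only. There is no replicate of any condition, hence no test of a condition. The closest yardstick is the pair of uninduced lines, which differ in their hairpin but not in Dox, and in which the log2 differences of the 36 members passing the filter had an SD of 0.11. Both belong to the knockdown arm, and the inhibitor arm has no such pair. Untreated cells of the 2 arms differed more at some members. GAA had 20.0 FPKM with vehicle and 55.4 FPKM in uninduced shLSD1, and PSAP 247 and 454, while LAMP1 had 36.1 and 36.0.

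KDM1A, which encodes LSD1, had 26.0 FPKM in the shLSD1 line without and 6.29 FPKM with Dox, and EHMT2, which encodes G9a, had 7.85 FPKM in the shG9a line without and 4.76 FPKM with Dox. The 2 genes also differed elsewhere. EHMT2 had 11.1 FPKM with vehicle and 5.38 FPKM under both inhibitors, and KDM1A 40.7 and 32.0 FPKM. In the shG9a line, KDM1A had 26.4 FPKM without and 35.8 FPKM with Dox. Of 8 squamous epithelial markers, 7 reached 1 FPKM in all 8 libraries, and the summed level of all 8 was between 882 and 5205 FPKM. Single markers moved several-fold and in both directions. KRT17 had 324 FPKM with vehicle and 3716 with SP2509, but fell with Dox from 1737 to 265 in shLSD1 and from 1596 to 158 in shG9a. From vehicle to both inhibitors, TP63 went from 79.1 to 18.3 FPKM and SFN from 179 to 690 FPKM. The markers of other cell types reached summed levels of at most 5.53 FPKM (fibroblast), 2.73 FPKM (leukocyte) and 14.5 FPKM (endothelium), the last nearly all CDH5. CDH5 had 3.28 FPKM with vehicle and 11.8 FPKM under both inhibitors, and 5.21 and 14.0 FPKM without and with Dox in shLSD1, while PECAM1 stayed at or under 0.569 FPKM. The leukocyte sum was nearly all CD14, which had 0.271 FPKM with vehicle and 0.660 FPKM under both inhibitors, and 0.956 and 2.67 FPKM without and with Dox in shLSD1, while PTPRC stayed at or under 0.0425 FPKM. What part these markers have in the results below was not tested. Across all genes, the median log2 fold change was -0.21 with SP2509, -0.01 with UNC0642, -0.02 with both inhibitors, 0.13 with Dox in the shLSD1 line and 0.18 with Dox in the shG9a line, and these values stand beside the members' medians below. In RNA from whole cultures, fewer cells of a kind and less RNA per cell cannot be told apart. The 3 inhibitor comparisons share the vehicle library, so their values are given side by side and are not independent of each other.

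The members moved mostly upwards where G9a was inhibited and most of all with both inhibitors. With the combination, 21 of 36 members were called higher and 4 lower, where 31.4% of 13907 genes were called higher and 31.7% lower, and the members' median log2 fold change was 0.77. SMPD1 is among the 21 and entered the comparison only through its level in the combination. With UNC0642, 18 of 35 members were called higher and 2 lower, against 18.2% and 16.9% of 13244 genes, with a median of 0.40. SP2509 alone gave 6 members higher and 6 lower of 35, against 21.0% and 39.9% of 13342 genes, with a median of 0.00.

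Dox in the shLSD1 line left 9 of 36 members higher and 1 lower, against 24.8% and 12.3% of 12970 genes, with a median of 0.19. In the shG9a line Dox left 5 members higher and 7 lower of 36, against 32.9% and 17.6% of 13080 genes, with a median of 0.10. The share of members called higher was thus near that of all genes for shLSD1 and below it for shG9a. Between the uninduced lines, 1 of 36 members was called (MCOLN1), where 3.04% of 12449 genes were called higher and 4.51% lower.

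The splits for 3 comparisons depend on how the libraries are scaled to each other. When ratios were centred so that genes of 5 FPKM or more had a median of 0, the 6 higher and 6 lower members of SP2509 became 10 and 4 (all genes, 24.6% and 34.9%), and with TMM scaling, which sets a trimmed mean of ratios to 0, they became 14 and 3 (31.0% and 29.4%). For shLSD1, the 9 and 1 became 6 and 3 when centred (17.0% and 16.6%) and 7 and 5 with TMM scaling (16.5% and 17.0%). For shG9a, the 5 and 7 became 4 and 8 when centred (22.5% and 22.5%) and 2 and 8 with TMM scaling (19.5% and 24.5%). The UNC0642 split stayed at 18 and 2 under both (18.5% and 16.7%, then 18.0% and 17.2%), and that of the combination became 20 and 4 when centred (29.9% and 33.5%) and stayed at 21 and 4 with TMM scaling (31.1% and 32.0%). Every member called with UNC0642 or with the combination kept its call under both scalings, except CTSZ in the combination when centred. Rescaling also added calls: with SP2509, LAMP2, NEU1, CTSA and GUSB rose under both scalings and TFE3, TPP1, ASAH1 and ATP6V1E1 under TMM scaling alone, and with Dox in shLSD1, CTSH and TFE3 fell under both and GAA and NEU1 under TMM scaling alone. With Dox in shG9a, TFE3 fell under both. Statements below that a member was not called refer to the deposited scale.

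**Figure D1:**
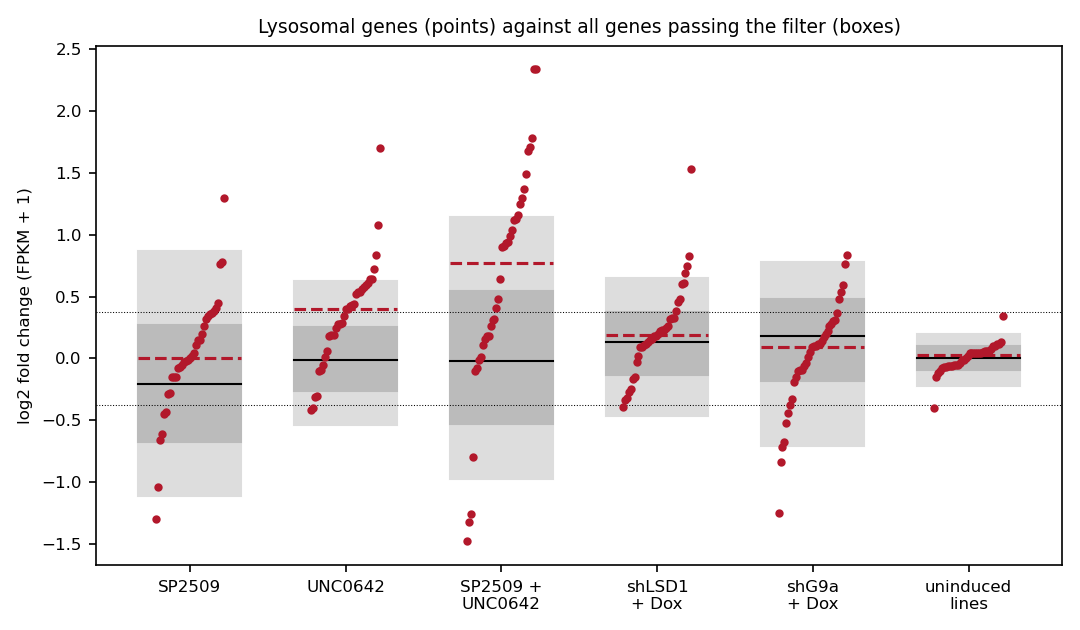
Each red point is 1 of the lysosomal genes passing the filter, plotted by its log2 fold change of (FPKM + 1) in each comparison, with the members' median as a dashed red line. Dark and light boxes hold the middle 50% and 80% of all genes passing the filter, the black line is their median, and the dotted lines are the 1.3-fold thresholds. The members' median lies at 0.40 with UNC0642 and 0.77 with the combination, above medians of -0.01 and -0.02 over all genes, and within the middle 50% of all genes in the other comparisons.

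Among the regulators, neither transcription factor gene was called higher with an inhibitor on the deposited scale. TFEB was low in every inhibitor library, at 0.882 FPKM with vehicle, 0.766 under SP2509, 0.515 under UNC0642 and 0.147 under both inhibitors. All of these are under 1 FPKM, so TFEB entered no inhibitor comparison, although its reads numbered 78 with vehicle and 14 under both inhibitors. In the shLSD1 line TFEB rose from 1.18 FPKM without to 2.03 FPKM with Dox (log2 fold change 0.48, or 1.73-fold with an interval of 1.37 to 2.19, a call that centring removed), and in the shG9a line it had 1.07 and 0.818 FPKM. TFE3 was far higher, at 22.5 FPKM with vehicle, 25.1 under SP2509, 16.6 under UNC0642 and 25.6 under both inhibitors. It was called only with UNC0642, where it fell by 0.42 on the log2 scale, and its Dox values were 18.3 against 14.5 FPKM in the shLSD1 line and 19.7 against 15.5 FPKM in the shG9a line. With centring or TMM scaling, both of these Dox differences also passed the threshold, as falls, and with TMM scaling TFE3 was called higher with SP2509.

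MCOLN1 encodes mucolipin-1, the channel that lets calcium out of the lysosome. It had 1.19 FPKM with vehicle, 1.25 under SP2509, 1.94 under UNC0642 and 3.08 under both inhibitors, 1.94 and 2.17 in the shLSD1 line without and with Dox, and 1.22 and 2.77 in the shG9a line. It rose 1.62-fold with UNC0642 (interval 1.21 to 2.18), 2.58-fold with the combination (1.97 to 3.42) and 2.27-fold with Dox in the shG9a line (1.74 to 2.98). The uninduced lines themselves differed at this gene, 136 reads in shLSD1 against 80 in shG9a. The call in shG9a stood with the mean of both uninduced lines as control, but 2.77 FPKM would not reach the threshold against uninduced shLSD1 alone (1.94 FPKM). A minimum of 5 FPKM, a level that MCOLN1 never reached, removed its calls in shG9a, with UNC0642 and with the combination.

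Of the membrane glycoproteins, LAMP1 and LAMP2, which coat the inner face of the lysosomal membrane, passed the threshold in none of the 5 comparisons, although LAMP2 was called higher with SP2509 under both rescalings. LAMP1 lay between 34.0 and 44.9 FPKM and LAMP2 between 33.2 and 46.7 FPKM over all 8 libraries. CD63, a tetraspanin of late endosomes and exosomes, had 51.1 FPKM with vehicle, 45.9 under SP2509, 84.6 under UNC0642 and 123 under both inhibitors. The last 2 were calls, 1.66-fold (interval 1.57 to 1.75) and 2.41-fold (2.29 to 2.53). In the knockdown arm CD63 had 91.9 and 120 FPKM in the shLSD1 line without and with Dox, a log2 fold change of 0.38 just past the threshold that was lost with either rescaling and with the mean of the uninduced lines as control, and it reached 98.4 FPKM with Dox in the shG9a line, which was no call.

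**Figure D2:**
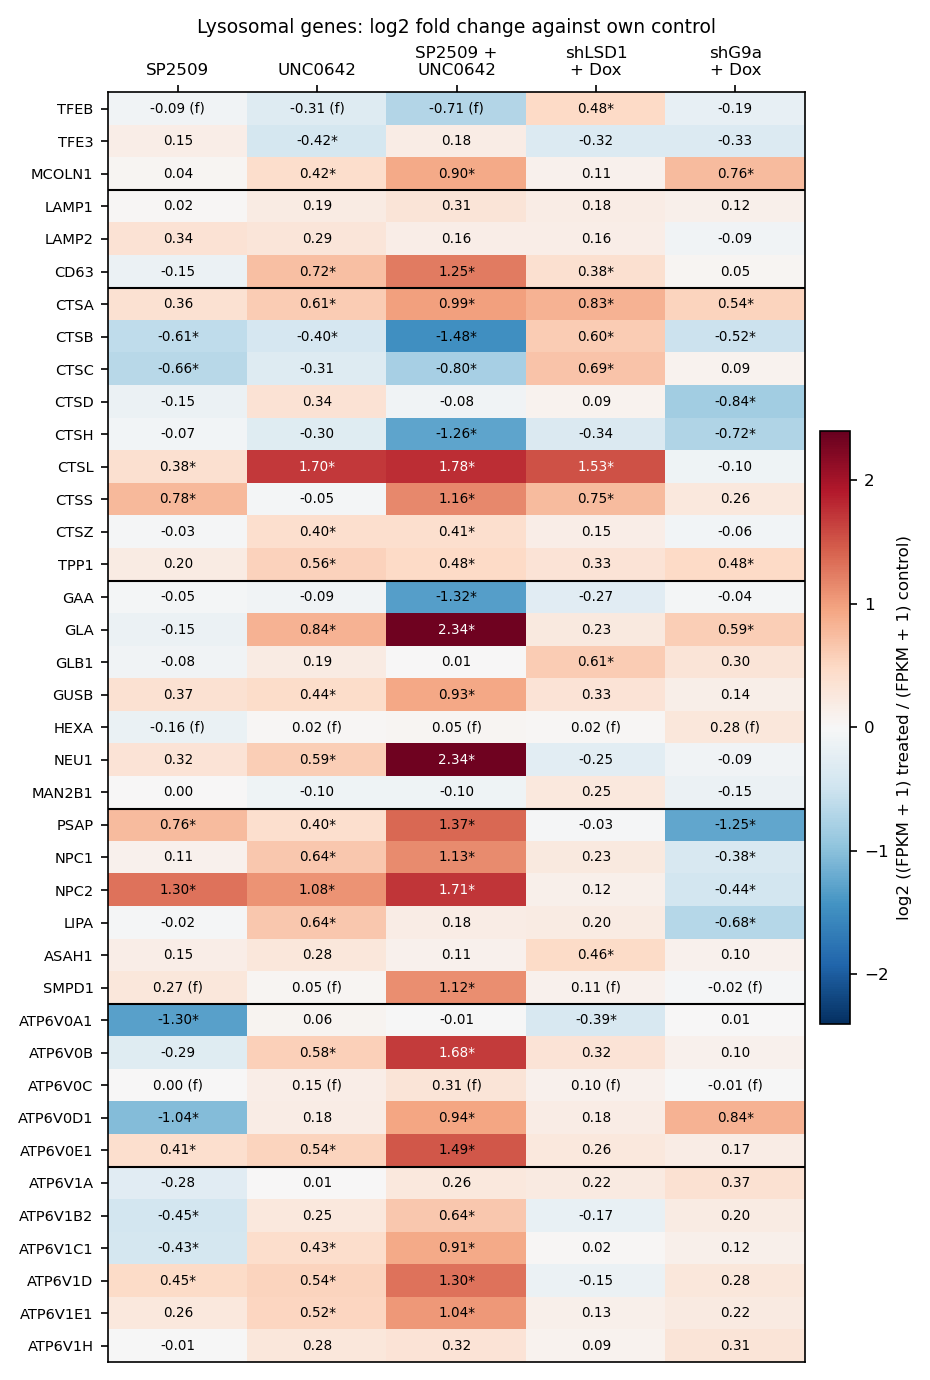
Rows are the 39 lysosomal genes in their role groups, columns the 5 comparisons, and each cell is coloured and labelled by the log2 fold change of (FPKM + 1), red for higher and blue for lower than its own control. An asterisk marks a call and (f) a gene under 1 FPKM in both libraries. The combination column holds the largest rises, GLA and NEU1 at 2.34, and the SP2509 column holds its largest falls at ATP6V0A1 and ATP6V0D1.

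The proteases moved in both directions. Cathepsin B (CTSB, ENSG00000164733, chr8:11842524-11869448 in the GRCh38 coordinates of the tables), a cysteine protease, was the only member called in all 5 comparisons, and it was lower in 4 of them. It had 213 FPKM with vehicle, 139 under SP2509, 161 under UNC0642 and 75.7 under both inhibitors, which is 2.81-fold lower than vehicle (interval 2.74 to 2.88). In the knockdown lines it went from 189 to 286 FPKM with Dox in shLSD1 and from 197 to 137 FPKM with Dox in shG9a. SP2509 and Dox in the shLSD1 line therefore stood on opposite sides of their controls, and so did Dox in both lines, whereas with TMM scaling the SP2509 call was lost.

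Cathepsin L (CTSL, ENSG00000135047, chr9:87725519-87731393), another cysteine protease of the lysosome, went the other way. It had 27.0 FPKM with vehicle, 35.5 under SP2509, 89.7 under UNC0642 and 95.1 under both inhibitors, and it rose 3.33-fold with UNC0642 (interval 3.10 to 3.57), the largest change of any member there. In the shLSD1 line it rose from 49.8 to 145 FPKM with Dox, 2.92-fold (2.77 to 3.07), again the largest change among members passing the filter. In the shG9a line it had 51.3 FPKM without and 47.7 FPKM with Dox, so that the G9a inhibitor and the G9a knockdown did not share this rise.

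Cathepsin S (CTSS), best known for trimming the invariant chain in antigen presentation, had 12.8 FPKM with vehicle, 22.7 under SP2509, 12.3 under UNC0642 and 29.7 under both inhibitors. It rose where LSD1 was the target, 1.78-fold with SP2509 (interval 1.63 to 1.93) and from 31.0 to 53.0 FPKM with Dox in the shLSD1 line (1.71-fold, 1.62 to 1.80), and had 29.8 and 35.9 FPKM in the shG9a line. Cathepsin C (CTSC), which activates serine proteases by removing dipeptides, fell from 40.6 FPKM with vehicle to 25.4 with SP2509 and 22.9 with the combination, and had 32.5 FPKM with UNC0642. In the shLSD1 line it rose from 22.3 to 36.5 FPKM with Dox, and in the shG9a line it had 23.0 and 24.6 FPKM.

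CTSA, the protective protein that holds neuraminidase and beta-galactosidase in a complex, rose in every comparison but 1. It had 12.3 FPKM with vehicle, 16.1 under SP2509 (not called), 19.2 under UNC0642 and 25.3 under both inhibitors, 13.3 and 24.5 without and with Dox in shLSD1, and 14.4 and 21.4 in shG9a. TPP1, which takes tripeptides off the ends of proteins, had 8.81 FPKM with vehicle, 10.3 under SP2509, 13.5 under UNC0642, 12.7 under both inhibitors, 6.19 and 8.02 in shLSD1, and 5.92 and 8.65 in shG9a. It was called higher with UNC0642, with the combination and with Dox in shG9a, but its gene end differs between the tables, so levels of TPP1 should be compared only within an arm. In the shG9a line, the CTSA call was lost with TMM scaling and the TPP1 call with both rescalings.

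The remaining proteases were called in 1 or 2 comparisons each. CTSH, an aminopeptidase, fell from 7.95 FPKM with vehicle to 2.73 with the combination, 2.91-fold (interval 2.53 to 3.35), and from 17.1 to 9.95 FPKM with Dox in shG9a. CTSD, the main aspartic protease of the lysosome, was called only with Dox in the shG9a line, where it fell from 66.3 to 36.6 FPKM. CTSZ, a carboxypeptidase, rose 1.34-fold with UNC0642 and by the same factor with the combination, a call that centring removed in the combination. CTSD, CTSZ, CTSA and TPP1 share 48.0%, 31.7%, 21.5% and 13.9% of their exonic bases with other genes in GENCODE 44, and the sources used here do not give whether the counting used strand.

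**Figure D3:**
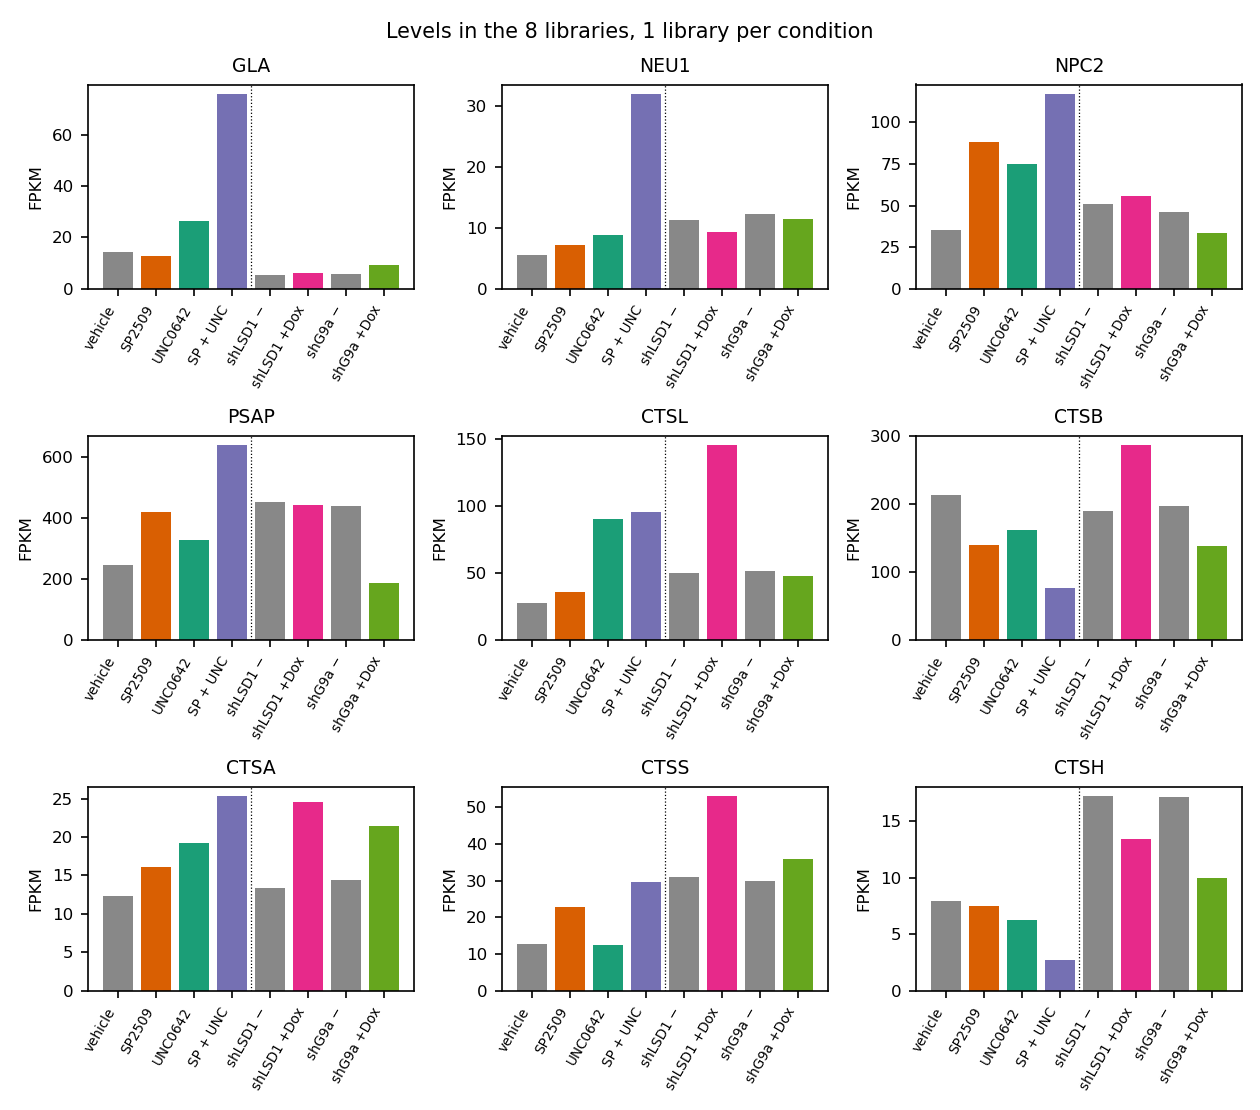
Bars give the FPKM of 9 lysosomal genes in the 8 libraries (1 library per bar, no error bars, each axis from 0), with the inhibitor arm left and the knockdown arm right of the dotted line and untreated controls in grey. GLA and NEU1 stand out with the combination at 75.8 and 31.9 FPKM, CTSL is high with UNC0642, the combination and Dox in shLSD1, and PSAP and NPC2 are above vehicle with every inhibitor and below their control with Dox in shG9a.

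Of the glycosidases, 2 had the largest rises of all members on the log2 scale. GLA (ENSG00000102393, chrX:101397803-101407925 in the inhibitor table), the alpha-galactosidase whose loss causes Fabry disease, had 14.2 FPKM with vehicle, 12.6 under SP2509, 26.2 under UNC0642 and 75.8 under both inhibitors. The combination was 5.34-fold above vehicle (interval 4.84 to 5.91) and UNC0642 1.85-fold (1.65 to 2.07), while SP2509 was not called. In the knockdown arm GLA had 5.22 and 6.28 FPKM in shLSD1 and 5.82 and 9.24 FPKM in shG9a without and with Dox, and the 1.59-fold rise in shG9a (1.34 to 1.89) was lost with TMM scaling. The gene bounds of GLA differ between the tables, so that its levels, like those of TPP1, compare only within an arm. NEU1 (ENSG00000204386, chr6:31857659-31862906), the neuraminidase that removes sialic acid, had 5.52 FPKM with vehicle, 7.12 under SP2509, 8.85 under UNC0642 and 31.9 under both inhibitors, which is 5.78-fold above vehicle (5.21 to 6.42). It was not called with Dox in either line.

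GUSB, the beta-glucuronidase, rose 1.39-fold with UNC0642 and 2.00-fold with the combination (interval 1.81 to 2.21). GAA, the enzyme that breaks down glycogen in lysosomes, was the only glycosidase called lower on the deposited scale. It had 20.0 FPKM with vehicle, 19.3 under SP2509, 18.8 under UNC0642 and 7.45 under both inhibitors, a 2.69-fold fall (2.45 to 2.95). GLB1, the beta-galactosidase, rose only with Dox in shLSD1, from 10.2 to 16.2 FPKM. MAN2B1, the alpha-mannosidase, which shares 21.2% of its exonic bases with other genes of its strand, was called nowhere and lay between 7.02 and 15.6 FPKM. HEXA, the alpha chain of beta-hexosaminidase, was under 1 FPKM in all libraries (0.330 to 0.618) and entered no comparison. A gene on the same strand overlaps it in the knockdown table, at no more than 0.0132 FPKM, and only genes on the other strand in the inhibitor table. In GENCODE 44 HEXA shares 16.7% of its exonic bases with other genes, and the use of strand is not given, so its level here is uncertain.

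In the lipid group, the G9a inhibitor and the G9a knockdown went in opposite directions. With UNC0642, 4 of its 5 members passing the filter rose (PSAP, NPC1, NPC2 and LIPA), and with Dox in the shG9a line the same 4 fell. In all, 11.4% of the 35 members passing in both comparisons rose with UNC0642 and fell with Dox in shG9a, where 5.95% of 11906 genes did. PSAP (ENSG00000197746, chr10:71816298-71851375) encodes prosaposin, the precursor of the saposins that present sphingolipids to their hydrolases. It had 247 FPKM with vehicle, 419 under SP2509, 327 under UNC0642 and 640 under both inhibitors, 454 and 444 in shLSD1, and 441 and 185 in shG9a without and with Dox. The fall in shG9a, 2.38-fold (interval 2.33 to 2.44), was the largest fall of a member in that comparison, and its rise with the combination was 2.58-fold (2.53 to 2.64).

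NPC1 and NPC2 hand cholesterol out of the lysosome. NPC2 (ENSG00000119655, chr14:74476192-74494177) had 35.1 FPKM with vehicle, 88.1 under SP2509, 75.1 under UNC0642 and 117 under both inhibitors, and its 2.51-fold rise with SP2509 (interval 2.37 to 2.67) was the largest of any member passing the filter there. It had 51.0 and 55.5 FPKM in shLSD1 and fell from 45.9 to 33.6 FPKM with Dox in shG9a. NPC1 had 13.7 FPKM with vehicle, 14.9 under SP2509, 21.8 under UNC0642 and 31.1 under both inhibitors, 12.0 and 14.2 in shLSD1, and 11.4 and 8.51 in shG9a. The NPC1 fall in shG9a was 1.34-fold (1.25 to 1.43), just past the threshold.

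LIPA, the acid lipase that frees cholesterol from its esters, rose from 19.9 to 31.6 FPKM with UNC0642 and fell from 22.2 to 13.5 FPKM with Dox in shG9a. It was at 22.6 FPKM with the combination, which was not a call. ASAH1, the acid ceramidase, was called only with Dox in shLSD1, from 9.85 to 13.9 FPKM, and lost that call with both rescalings. SMPD1, the acid sphingomyelinase, had 2 reads with vehicle against 59 under both inhibitors, a ratio of 27.4 with an interval of 7.25 to 231, and stayed under 1 FPKM in the other 7 libraries.

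Most proton pump subunits rose with the combination. Of the 10 subunits passing the filter, the combination had 7 higher and none lower, namely ATP6V0B, ATP6V0D1, ATP6V0E1, ATP6V1B2, ATP6V1C1, ATP6V1D and ATP6V1E1, where 31.4% of all genes were higher and 31.7% lower. ATP6V0A1, ATP6V1A and ATP6V1H were not called, with log2 fold changes of -0.01, 0.26 and 0.32. UNC0642 had 5 higher and none lower (18.2% and 16.9% of all genes). SP2509 had 2 higher and 4 lower of 10, which is the share of all genes (21.0% and 39.9%). With Dox, 1 subunit was lower in shLSD1 (12.3% of all genes) and 1 was higher in shG9a (32.9%).

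In the V0 sector, ATP6V0A1 (ENSG00000033627, chr17:42458844-42522611), a subunit of the proton path, and ATP6V0D1 (ENSG00000159720, chr16:67438014-67481237), which links both sectors, had the largest falls of any members with SP2509. ATP6V0A1 had 5.94 FPKM with vehicle, 1.82 under SP2509, 6.25 under UNC0642 and 5.91 under both inhibitors, so the 3.26-fold lower level (interval 2.89 to 3.69) was seen with SP2509 alone among the inhibitor libraries. It also fell with Dox in shLSD1, from 4.48 to 3.18 FPKM, and had 4.73 and 4.77 FPKM in shG9a. ATP6V0D1 had 3.72 FPKM with vehicle, 1.29 under SP2509, 4.36 under UNC0642 and 8.03 under both inhibitors, that is 2.89-fold lower (2.44 to 3.44) with SP2509 and 2.16-fold higher (1.94 to 2.41) with both inhibitors. In shG9a it rose from 4.33 to 8.53 FPKM with Dox, the largest log2 fold change of a member there (0.84), and in shLSD1 it had 4.17 and 4.85 FPKM. By reads, MCOLN1 rose more in shG9a (2.27-fold, against 1.97-fold for ATP6V0D1).

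ATP6V0E1, a small membrane subunit, had 31.0 FPKM with vehicle, 41.4 under SP2509, 45.6 under UNC0642 and 88.8 under both inhibitors. All 3 differences from vehicle were calls, and in the knockdown arm its levels of 56.6 and 67.9 FPKM in shLSD1 and 57.6 and 64.7 FPKM in shG9a were not. ATP6V0B, one of the proteolipids of the rotating ring, had 14.0 FPKM with vehicle, 11.3 under SP2509, 21.5 under UNC0642 and 46.9 under both inhibitors, a 3.35-fold rise (interval 3.09 to 3.63). For ATP6V0C, the main proteolipid, the tables list at most 0.237 FPKM in any library. In GENCODE 44, 76.3% of its exonic bases lie in other genes of the same strand, and its level here says little about the gene.

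In the V1 sector, ATP6V1D of the central stalk had 11.0 FPKM with vehicle, 15.4 under SP2509, 16.5 under UNC0642 and 28.6 under both inhibitors, each a call. ATP6V1C1, which joins stalk and membrane sector, had 9.07 FPKM with vehicle, 6.47 under SP2509, 12.5 under UNC0642 and 17.9 under both inhibitors, lower with SP2509 and higher with the other 2 treatments. Neither was called with Dox, with 13.9 and 12.4 FPKM for ATP6V1D and 7.22 and 7.31 for ATP6V1C1 in shLSD1, and 13.4 and 16.4, and 6.56 and 7.23, in shG9a. ATP6V1B2, a subunit of the ATP-splitting head, had 12.4 FPKM with vehicle, 8.79 with SP2509 and 19.9 with the combination. The falls of ATP6V1B2 and ATP6V1C1 with SP2509 were lost with both rescalings. ATP6V1E1, of the peripheral stalk, rose 1.45-fold with UNC0642 and 2.10-fold with the combination, while ATP6V1A, the catalytic subunit, at 12.2 to 18.2 FPKM, and the regulatory subunit ATP6V1H, at 6.32 to 9.68 FPKM, were called nowhere.

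**Figure D4:**
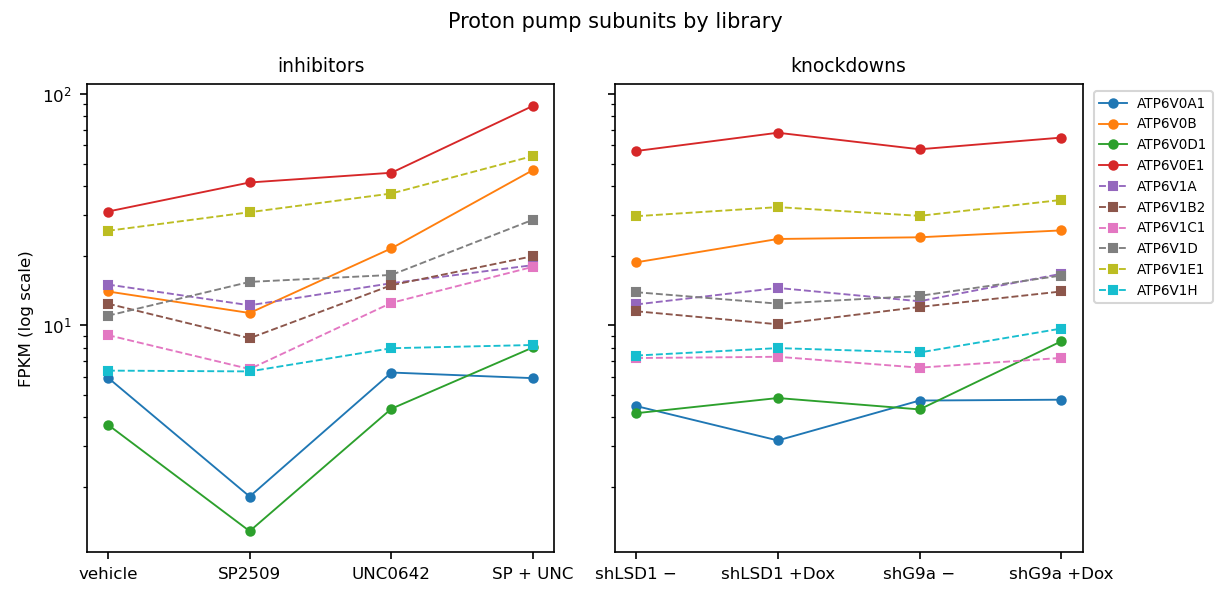
Points give the FPKM (log axis) of the 10 proton pump subunits passing the filter in each library, V0 subunits as circles with solid lines and V1 subunits as squares with dashed lines, with lines joining the values of 1 subunit and no order between libraries. With the combination 7 subunits lie above vehicle by the call threshold, while ATP6V0A1 and ATP6V0D1 drop to 1.82 and 1.29 FPKM with SP2509. In the knockdown lines most subunits are nearly level, with ATP6V0D1 at 8.53 FPKM with Dox in shG9a.

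Ranked by library within each arm, the combination was the highest of the 4 inhibitor libraries for 24 of 36 members (66.7%), against 33.6% of 14801 genes, and vehicle was the lowest for 16 (44.4%, against 22.4% of genes). In the knockdown arm, shLSD1 with Dox was the highest for 20 of 36 members (55.6%), against 27.5% of 13725 genes. The shG9a line with Dox was the highest for 11 members, a smaller share than its share of all genes. A rank sets no minimum difference, and by calls the share of members higher in shLSD1 was near that of all genes. All ranks were taken on the deposited scale. Their dependence on scaling was not tested, although the shLSD1 calls and median did change with it. Of the 39 members, 7 were called in no comparison, 7 in 1, 9 in 2, 11 in 3, 4 in 4 and 1 in all 5. The 7 called nowhere were LAMP1, LAMP2, MAN2B1, ATP6V1A, ATP6V1H and the 2 that never passed the filter, HEXA and ATP6V0C. In both directions 9 members were called (CTSB, CTSC, PSAP, NPC1, NPC2, LIPA, ATP6V0D1, ATP6V1B2 and ATP6V1C1). These counts by number and direction of calls were not made over all genes, so they do not set the members apart from other genes.

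Between an inhibitor and the knockdown of the same enzyme, which share no library, some calls were in common. For G9a, GLA, TPP1, MCOLN1 and CTSA were higher in both, 11.4% of 35 members against 4.79% of 11906 genes, and these 4 are 22.2% of the members called higher with UNC0642 and 80.0% of those called higher with Dox in shG9a. Over all genes, those higher in both are 29.5% and 15.2% of the genes called higher in each. CTSB was lower in both, 2.86% of members against 4.01% of genes. For LSD1, CTSS and CTSL were higher in both, 5.71% of 35 members against 2.53% of 11769 genes, ATP6V0A1 was lower in both, 2.86% of members against 2.07% of genes, and CTSB and CTSC were lower with SP2509 and higher with Dox in shLSD1, 5.71% of members against 14.4% of genes. With TMM scaling the GLA, TPP1 and CTSA calls in shG9a and the CTSB call with SP2509 were lost.

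The members that hold CACGTG in the promoter windows did not all move together. With the combination, 6 of the 9 were called higher (MCOLN1, CD63, CTSA, NEU1, ATP6V0B and ATP6V0D1), GAA with 2 copies of TCACGTGA was lower, and LAMP1 and CTSD were not called. Of the 17 members with a promoter but without these letters that passed the filter, 10 were higher and 2 lower. Over all genes with a promoter, 28.4% of 924 with the core and 30.2% of 8175 without it were called higher with the combination. With UNC0642 5 of the 9 members with the core and 10 of 16 without it were higher, against 13.0% and 16.4% of all genes with and without it. With SP2509 none of 9 and 3 of 16 were higher (all genes, 14.4% and 18.2%), with Dox in shLSD1 2 of 9 and 4 of 17 (22.2% and 23.1%), and with Dox in shG9a 3 of 9 and 2 of 17 (31.7% and 30.7%).

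A further 86 lysosomal genes, of which 85 are listed in at least 1 table, were counted in the same way. With the combination 28 of 73 passing the filter were higher and 18 lower (38.4% and 24.7%, against 31.4% and 31.7% of all genes). With UNC0642 16 of 71 were higher and 5 lower (22.5% and 7.04%, against 18.2% and 16.9%), and with SP2509 10 of 70 were higher and 23 lower (14.3% and 32.9%, against 21.0% and 39.9%). Dox in shLSD1 left 21 higher and 4 lower of 70 (all genes, 24.8% and 12.3%), and Dox in shG9a left 31 higher and 4 lower of 72 (43.1% and 5.56%, against 32.9% and 17.6%). In shG9a, the members had 7 lower of 36 beside these 4 of 72, a difference that was not tested. The largest rises were those of ACP5, the tartrate-resistant acid phosphatase, from 2.06 to 12.8 FPKM with the combination, and of ATP6V0A4, a V0 subunit found mainly in kidney and inner ear, with no read in the vehicle library against 183 in that of both inhibitors, at least 56.6-fold higher when 3 reads are set for vehicle (the exact two-sided interval starts at 45.6-fold). The largest falls were those of LAMP3, a lysosomal membrane protein of dendritic cells and some tumours, from 8.97 to 1.09 FPKM with Dox in shG9a, and of TPCN2, a cation channel of the lysosome, from 5.48 to 1.41 FPKM with SP2509.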

How the data were processed

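Total RNA of Kyse510 cells was sequenced as paired-end reads. After quality filtering the authors aligned the clean reads to GRCh38 (per the labels), and they deposited FPKM values in 2 tables, 1 per arm. The aligner, the counting tool and the use of strand are not given in the sources used here. No column of another series was present (0), and the tables' annotation columns were used only for symbols and positions.

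Library totals were recovered from the FPKM steps of 1-exon genes, of which 99.9% gave whole reads. For other genes the smallest length giving whole reads (tolerance 0.005) in both tables was taken, and these reads made up 99.5% to 99.8% of the totals. Intervals and floors cover counting error only. Calls needed a fold of (FPKM + 1) of at least 1.3 and 1 FPKM in at least 1 library. A call tests nothing about a condition, since each has 1 library. Alternatives were a pseudocount of 0.1, no filter, a minimum of 5 FPKM, a fold of 2, centring, TMM scaling, an added exact binomial test of reads at 0.05, and the mean of the 2 uninduced lines as control.

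The members, the other lysosomal genes and the rules were chosen with earlier results of these data known. Values in every library were given for members called in at least 3 comparisons, for those with the largest change in each direction of a comparison, and for TFEB, TFE3 and MCOLN1. The other values shown for CTSH, CTSD, GAA, LIPA, NEU1, ATP6V0B and the like were chosen after they were seen. Promoters are those of RefSeq (GRCh38.p14), found for 28 of 39 members. Python 3.11.15, numpy 2.4.6, pandas 2.3.3, scipy 1.17.1 and matplotlib 3.10.9 were used. On data simulated for the shG9a comparison, 4 of 4 totals were recovered without error, as were all reads of 94.5% of 22663 genes. There, 100 of 100 doubled and 100 of 100 halved genes were called, and 525 of 12136 unchanged genes were called (4.33%). The changed genes were drawn from well-counted genes above the filter, and the simulated libraries otherwise differed by counting error only. These shares therefore do not give the rates of right and wrong calls between real libraries.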

Additional observations from a re-analysis of the deposited data

Results flagged for a closer look

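CTSB was on opposite sides of its control in the 2 knockdown lines, with a log2 fold change of 0.60 with Dox in shLSD1 and -0.52 with Dox in shG9a. It drew attention because the single induced library of each line moved the opposite way. The difference between the lines was not tested, since each condition has 1 library. The uninduced lines had 189 and 197 FPKM.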

How the results depend on the processing

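No paired analysis was possible because each condition has 1 library and the labels carry no replicate numbers to pair, and no library could be left out for the same reason. Among the single-member log2 fold changes under the alternatives, 1113 stayed within the yardstick spread of 0.11 and 192 moved further. No call turned to the opposite direction, but the sign of some small changes did. With SP2509, TMM scaling took CD63 from -0.15 to 0.12 and GAA from -0.05 to 0.22. A fold of 2, no filter, a minimum of 5 FPKM and the read test cannot change a log2 fold change, so these always counted as stayed. The tally does not follow the calls. A fold of 2 removed 9 of 12 calls with SP2509, 18 of 20 with UNC0642 and 9 of 25 with the combination. With Dox it removed 9 of 10 in shLSD1 and 11 of 12 in shG9a. With a fold of 2, SP2509 had 1 member higher and 2 lower (all genes, 8.25% and 13.0%). UNC0642 had 2 of 35 higher and 0 lower (4.79% and 3.12%), so the share called higher was near that of all genes. The combination had 13 higher and 3 lower of 36 (13.0% and 9.57%). Dox in shLSD1 gave 1 and 0 (3.36% and 3.27%), and Dox in shG9a 0 and 1 (5.13% and 6.02%). Centring gave 10 higher with SP2509, 3 lower and a median of 0.08 in shLSD1, and a median of -0.05 in shG9a. TMM scaling gave 14 higher, 3 lower and a median of 0.25 with SP2509, 5 lower and a median of 0.06 in shLSD1, and 2 higher and a median of -0.13 in shG9a. With no filter the median was 0.29 with UNC0642 and 0.48 with the combination, since genes near 0 FPKM entered. With a minimum of 5 FPKM it was 0.56 with the combination, and 0 members were lower in shLSD1. The cause of the differences between scalings was not tested. Depth limits TFEB, MCOLN1 and SMPD1 most, whose reads were fewest among the members passing a filter, and ATP6V0C with 0 to 6 reads allows no statement.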
